A study of Mus musculus with 6 samples.

Results

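The matrix metalloproteinases Mmp2, Mmp3, Mmp9, Mmp12, Mmp14 and Mmp23 and the tissue inhibitors of metalloproteinases Timp1, Timp2, Timp3 and Timp4 were examined in mouse hearts after myocardial infarction. The 10 genes were chosen by name, as the gene probes that the array's own annotation assigns to them, and they are 10 of 36163 gene names on the array, with 12 of its 55681 gene probes and 21 of its 59305 gene spots. RNA was measured in hearts of male C57BL/6 mice, 8 weeks old, in which the left anterior descending coronary artery had been ligated, so that both groups carried an infarct, and hearts were taken 21 days later. The antagomir group had received a miR-433 antagomir, an oligonucleotide meant to block that microRNA, at 80 mg/kg on 3 consecutive days, and the control group a scrambled oligonucleotide, with 3 arrays in each group. The question of the study was whether inhibition of miR-433 limits cardiac fibrosis. There was no uninjured heart and no untreated infarct among these arrays, the labels name no region of the heart, and it is not stated either whether the arrays stand for different mice, so that p-values measure the spread between these samples, which may be technical.

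Metalloproteinases are zinc-dependent endopeptidases that cut collagens, elastin, fibronectin and other matrix proteins. They are made as inactive precursors and are switched on outside the cell or, for the membrane-anchored members, on the way to the cell surface. TIMPs bind the active site and block it, and Timp2 also forms a bridge through which Mmp14 activates the Mmp2 precursor, so that an inhibitor can take part in activation. After infarction these enzymes clear and remodel the injured matrix while fibroblasts lay down the scar, and much of their control lies in activation and inhibition of the protein, which RNA does not measure.

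The microRNA addressed by the treatment has a mature sequence from each arm of its hairpin, and the labels do not say against which arm the antagomir was made. Both are shown as given by RefSeq (GRCm38.p6), 5′ to 3′, with the seed, bases 2 to 8, in capitals, from chr12:109591781-109591802 and chr12:109591729-109591750 on the plus strand. The seeds of the arms differ.
mmu-miR-433-3p: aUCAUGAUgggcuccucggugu
mmu-miR-433-5p: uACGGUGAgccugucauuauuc

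Promoter windows, from 250 bases before to 50 bases after the annotated start, were found for 8 of the 10 genes, in 10 windows, in the table of RefSeq promoters used here, and were read because inducible metalloproteinase genes are classically driven through AP-1 and Ets sites close to a TATA box. Those of Mmp2 and Mmp9 were not analysed here. Letters were searched on both strands, as TGANTCA for AP-1, GGAAG for Ets and TATAAA for the TATA box. AP-1 letters stood in 2 windows, those of Mmp3 and of the downstream start of Mmp12, against 7.81% of all 32851 windows in the table. The TATAAA letters stood in the same 2 windows, against 13.6% of all windows. Ets letters stood in 10 of 10 windows, but also in 71.4% of all windows. The 2 windows with AP-1 letters are printed because these genes share the letters and differ in their values below, with the AP-1 and TATA letters in capitals. In the Mmp3 window (chr9:7445572-7445871, plus strand, GRCm38.p6) they begin at −46 and −7 from the annotated start. In the Mmp12 window (chr9:7347124-7347423, plus strand) they begin at −44 and 4.
Mmp3: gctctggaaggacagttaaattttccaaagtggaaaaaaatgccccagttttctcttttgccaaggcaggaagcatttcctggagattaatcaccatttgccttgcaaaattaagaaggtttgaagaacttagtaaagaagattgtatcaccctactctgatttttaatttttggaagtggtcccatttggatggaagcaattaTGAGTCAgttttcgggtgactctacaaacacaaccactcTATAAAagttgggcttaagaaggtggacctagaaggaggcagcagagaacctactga
Mmp12: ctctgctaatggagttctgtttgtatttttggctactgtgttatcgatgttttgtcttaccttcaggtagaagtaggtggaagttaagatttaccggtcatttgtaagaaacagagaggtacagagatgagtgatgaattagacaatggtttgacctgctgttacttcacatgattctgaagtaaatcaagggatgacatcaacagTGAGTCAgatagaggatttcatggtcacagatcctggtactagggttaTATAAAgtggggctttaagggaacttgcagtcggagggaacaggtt

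Signals below are the scanner's processed signals in its own units, and fold changes are log2 differences, antagomir minus control, after subtracting each array's 75th percentile, with n = 3 per group. Since probes differ in how brightly they bind, levels were compared between arrays and not between genes. The 6 arrays shared 1 slide and 1 scan. Of the gene spots, 57.7% to 58.5% were called well above background in the controls, and 55.2%, 56.2% and 73.6% on antagomir arrays 1, 2 and 3, and 0 were saturated. Antagomir array 3 was brighter at its dim end, with a median probe signal of 74.8 against 23.4 to 31.0 on the other arrays. All 10 cardiomyocyte markers were tested, with Myl2, the ventricular light chain, between 187436 and 225366 on every array. The number of arrays limits the precision, and a permutation of 3 against 3 arrays cannot give a p below 0.1.

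Most of the genes had lower signals with the antagomir. Of the 10 genes 9 were well above background on enough arrays to be tested, and 8 had a lower and 1 a higher mean, with a median fold change of −0.81, against 37.4% lower and a median of 0.09 over all 22991 genes tested. None of the 9 passed limma's Benjamini-Hochberg adjusted p of 0.05 over all genes (the lowest was 0.497), where 0.013% of all genes did. At an unadjusted limma p under 0.05, 5 of the 9 were lower (Mmp2, Mmp3, Mmp14, Mmp23 and Timp2) and 0 higher, against 4.16% of all genes lower and 3.05% higher. In 6 of the 9 (these 5 and Timp3) all 3 antagomir arrays lay below the lowest control, against 6.93% of all genes, and in 0 they lay above the highest, against 8.78%. The 10 genes were chosen with earlier results of these data known, so the shares over all genes give a scale and no test of the group. In bulk tissue, fewer cells of a type and less RNA per cell cannot be told apart.

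**Figure D1:**
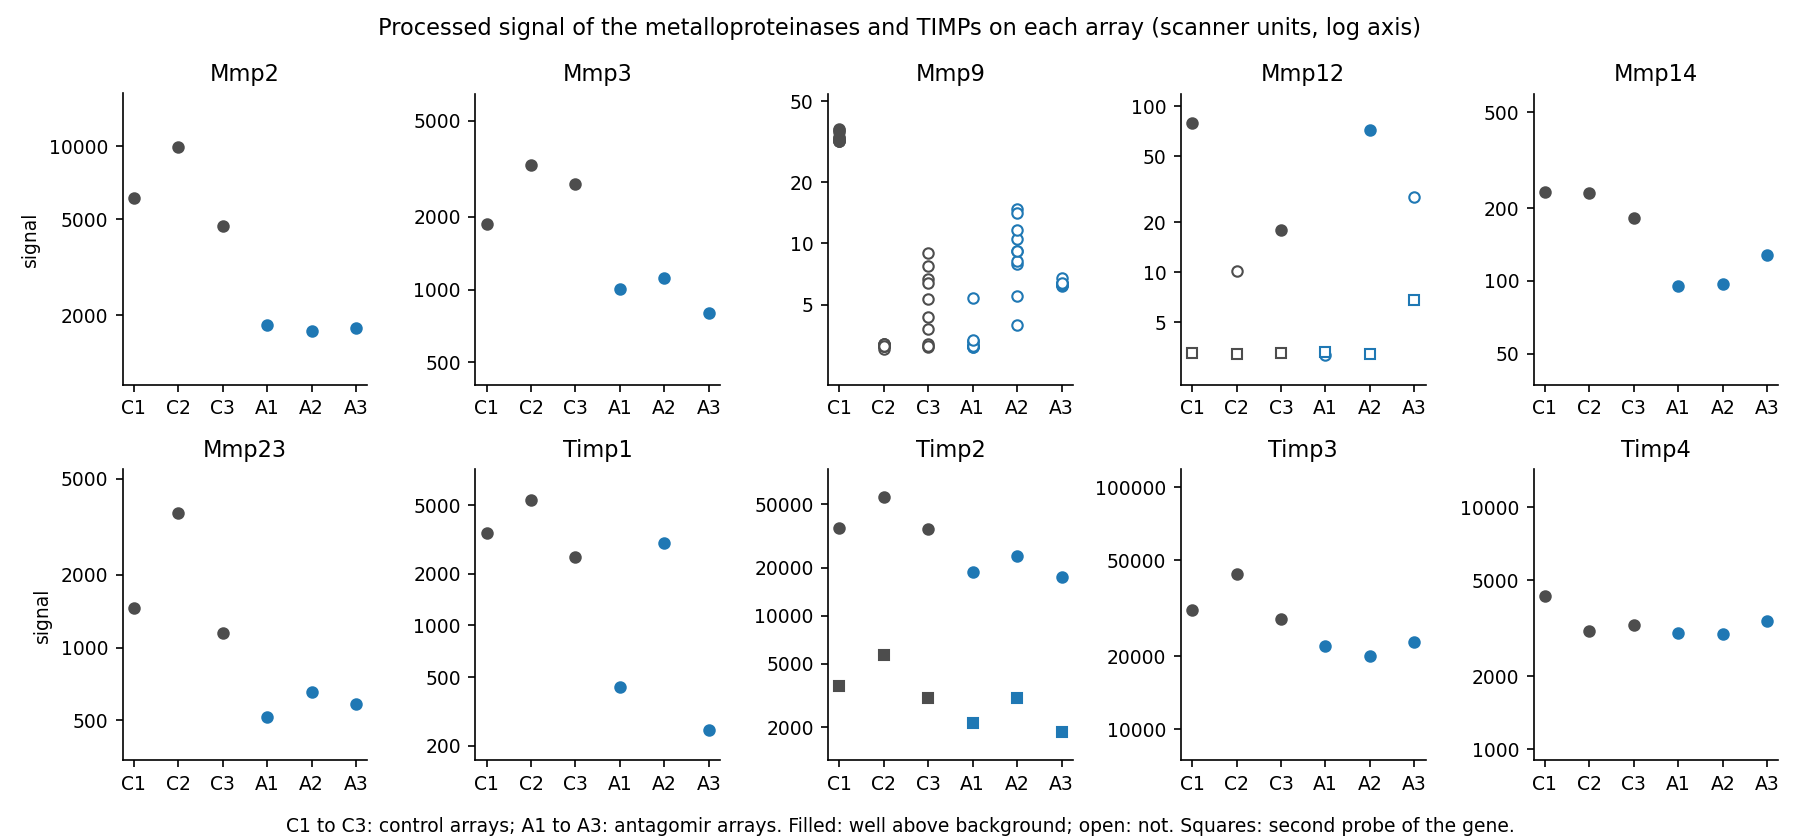
Processed signal (scanner units, log axis) of each gene on control arrays 1 to 3 (C1 to C3, grey) and antagomir arrays 1 to 3 (A1 to A3, blue), 1 point per spot, with filled points well above background, open points not, squares for the second probe and outlier spots left out. The groups separate for Mmp2, Mmp3, Mmp14, Mmp23, Timp2 (brighter probe) and Timp3, and overlap for Timp1, Timp4 and Mmp12.

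Among the secreted proteases, Mmp2, the gelatinase that cuts denatured collagen and type IV collagen, had the smallest unadjusted p of the 9 tested genes. Control arrays 1, 2 and 3 gave signals of 6105, 9973 and 4708, and the antagomir arrays, in the same order, 1828, 1719 and 1775. The control arrays were spread widely and the antagomir arrays lay close together (SD 0.49 and 0.093 on the log2 scale), with every antagomir array below the lowest control. The fold change was −1.66 (SE 0.26, 95% interval −2.30 to −1.01, limma adjusted p = 0.497), a 3.16-fold lower signal, and 0.70% of all genes tested had a more negative value. The probe lies at chr8:95376840-95376899 (mm9, plus strand). Exon and UTR annotation of that build was not used here.

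Mmp3, stromelysin-1, which cuts proteoglycans and laminin and activates other precursors, had signals of 1870, 3271 and 2747 on the control arrays. On the antagomir arrays they were 1004, 1119 and 801, again all below the lowest control. The fold change was −1.17 (SE 0.27, 95% interval −1.83 to −0.51, limma adjusted p = 0.546), a 2.25-fold lower signal, from a probe at chr9:7455751-7455810. Mmp3 is the gene whose promoter window carries AP-1 and TATA letters above.

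Mmp12, the macrophage elastase, has the other window with these letters and did not separate. Its brighter probe (chr9:7352935-7352994) gave 79.8, 10.2 and 18 on the control arrays and 3.16, 72.2 and 28.3 on the antagomir arrays. It was well above background on 2 control arrays and 1 antagomir array, so that each group held both bright and dim arrays. The fold change was −0.16 with a 95% interval of −3.35 to 3.04 (SE 1.31, limma adjusted p = 0.968), which leaves a change of either sign within it, and the mean turned to 0.69 without control replicate 1 and to 1.1 without antagomir replicate 1. The second probe (chr9:7360373-7360432) was well above background on 0 of 6 arrays.

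Mmp9, the second gelatinase, which neutrophils and macrophages release, could not be tested. Its probe (chr2:164780620-164780679) was spotted 10 times on each array. On control array 1 all 10 spots were well above background, with signals of 31.8 to 46.5 and a median of 33.3, and 1 of them was marked as an outlier. On the other 5 arrays 0 of 10 spots were, with medians of 3.14 and 4.83 on control arrays 2 and 3 and of 3.14, 9.16 and 6.32 on antagomir arrays 1, 2 and 3. Repeat spots agreed in this call within each array, and Mmp9 was thus measurable in 1 sample. Their signals still varied, from 3.09 to 8.98 on control array 3 and from 3.96 to 14.8 on antagomir array 2. No fold change is given, because the bound set by background was below 1.

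The membrane-bound proteases had lower values too. Mmp14, which is anchored in the membrane, cuts fibrillar collagen and activates the Mmp2 precursor, had signals of 234, 231 and 182 on the control arrays and 95, 97.6 and 128 on the antagomir arrays. Both groups were tight and did not overlap. The fold change was −0.78 (SE 0.16, 95% interval −1.16 to −0.39, limma adjusted p = 0.522), a 1.72-fold lower signal, the smallest SE among the 9 genes, from a probe at chr14:55058775-55058834.

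Mmp23, a membrane protease that lacks the hemopexin domain common to the family, had signals of 1458, 3609 and 1146 on the control arrays and 516, 656 and 586 on the antagomir arrays. The antagomir arrays again lay together, below all controls, and control array 2 stood above the other controls. The fold change was −1.41 (SE 0.41, 95% interval −2.41 to −0.40, limma adjusted p = 0.612), a 2.65-fold lower signal, from a probe at chr4:155025377-155025436 on the minus strand. Without control replicate 2 it was −0.94.

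The inhibitors did not behave alike. Timp1, the inducible inhibitor with little hold on Mmp14, had signals of 3467, 5406 and 2499 on the control arrays. On the antagomir arrays it was 440 and 246 on arrays 1 and 3 but 3042 on array 2, within the range of the controls. The mean fold change of −2.15 was the most negative of the 9 genes, yet its 95% interval ran from −4.48 to 0.19 (SE 0.95, limma adjusted p = 0.691; exact two-sided permutation p = 0.3). It was −3.24 without antagomir replicate 2 and −1.36 without antagomir replicate 3. The probe lies at chrX:20451802-20451861.

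Timp2, the inhibitor that also takes part in Mmp2 activation, had 2 tested probes. The brighter (chr11:118163146-118163205, minus strand) gave 35767, 55295 and 35107 on the control arrays and 18822, 23879 and 17534 on the antagomir arrays, without overlap. Its fold change was −0.81 (SE 0.24, 95% interval −1.39 to −0.23, limma adjusted p = 0.611), a 1.75-fold lower signal. The second probe, a 60-mer whose listed interval (chr11:118171964-118178741) is far longer than the probe, gave 3601, 5669 and 3025 on the control arrays and 2118, 3032 and 1850 on the antagomir arrays. With antagomir array 2 just above control array 3 in signal, its fold change was −0.56 (SE 0.30). Both probes had the same sign.

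Timp3, the inhibitor that binds to the matrix and also blocks ADAM proteases, had signals of 30975, 43987 and 28418 on the control arrays and 22086, 20001 and 22853 on the antagomir arrays. The groups did not overlap, but the gap was narrow, and the fold change was −0.41 (SE 0.18, 95% interval −0.85 to 0.032, limma adjusted p = 0.691; probe at chr10:85811696-85811755). Without control replicate 2 it was −0.25.

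Timp4, the inhibitor known for its expression in heart muscle, had signals of 4305, 3075 and 3262 on the control arrays and 3011, 2991 and 3381 on the antagomir arrays. The groups overlapped, and the fold change of 0.068 had a 95% interval of −0.36 to 0.49 (SE 0.17, limma adjusted p = 0.893). Differences larger than these bounds in either direction lie outside that interval. Its sign was not stable, at −0.054 without control replicate 2 and −0.40 with scaling by the array median. The probe lies at chr6:115196120-115196179 on the minus strand.

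**Figure D2:**
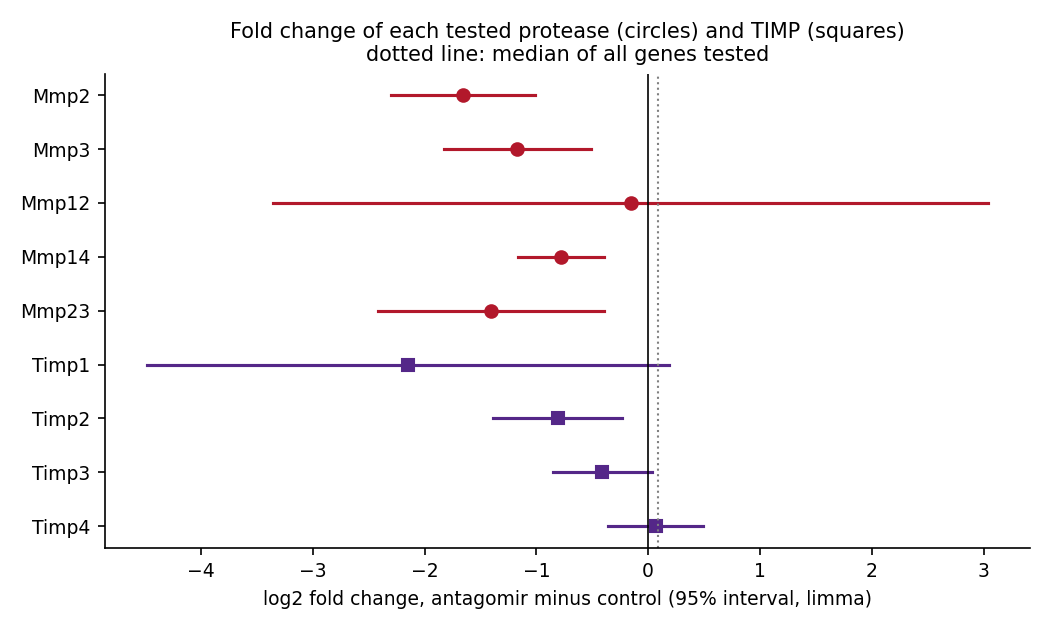
Log2 fold change, antagomir minus control, of the 5 tested proteases (red circles) and 4 TIMPs (purple squares) with limma's 95% intervals, and the median of all genes tested (0.09) as a dotted line. The intervals of Mmp2, Mmp3, Mmp14, Mmp23 and Timp2 lie below 0, and those of Mmp12, Timp1, Timp3 and Timp4 include it.

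The slide had a row that held control arrays 1 and 2 alone, and a row that held control array 3 with all antagomir arrays. Within that second row, control array 3 alone could be set against the antagomir arrays, and since the control arm is then 1 array, these values are given with no test. There the fold change was −1.23 for Mmp2, −1.33 for Mmp3, −0.60 for Mmp14 and −0.80 for Mmp23. For the inhibitors it was −1.68 for Timp1, −0.64 for Timp2, −0.22 for Timp3 and 0.11 for Timp4, and for Mmp12 it was 0.22. The signs of 8 of the 9 genes were as over all arrays, with Mmp12 the exception. The groups did not overlap for Mmp2, Mmp3, Mmp14, Mmp23, Timp2 and Timp3, so a negative sign against control array 3 was fixed. Their signs are thus no check of the slide row, whose part in the values was not tested.

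Proteases were then set against inhibitors by taking, on each array, the mean over genes of the log2 deviation from the gene's own control mean. The 5 tested proteases stood at 0.18, 0.10 and −0.29 on the controls and at −1.54, −0.56 and −1.0 on antagomir arrays 1 to 3 (mean −1.03 ± 0.49, SD, n = 3, against a control SD of 0.25). The 4 TIMPs stood at −0.028, 0.25 and −0.22 on the control arrays and at −0.96, −0.23 and −1.29 on the antagomir arrays (−0.82 ± 0.54, control SD 0.23). The proteases stood apart between the groups, and the TIMPs hardly did, since antagomir array 2 came next to control array 3 (−0.23 against −0.22).

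The difference between both, proteases minus TIMPs, was −0.21 ± 0.44 on the antagomir arrays against 0 ± 0.19 on the controls. By array it was 0.21, −0.14 and −0.069 on the controls and −0.58, −0.33 and 0.28 on the antagomir arrays. The antagomir mean lay within 1 SD of 0, and antagomir array 3 had the opposite sign to the others. No shift between the means of these proteases and TIMPs was thus resolved at this number of arrays. The value hung on single genes: it was −0.43 ± 0.45 without Mmp12 and 0.088 ± 0.57 without Timp4. Timp1 had the widest spread of the TIMPs on the antagomir arrays (SD 1.95), with deviations of −2.75, 0.030 and −3.73 on arrays 1 to 3. Mmp12 had the widest of the proteases (SD 2.29). The difference without Timp1 was not taken, so the part of Timp1 in the sign on array 3 was not tested. Without Mmp12 the proteases were at −1.26, −1.16 and −1.34 on the antagomir arrays, a spread (SD 0.091) smaller than that of the controls (SD 0.40).

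**Figure D3:**
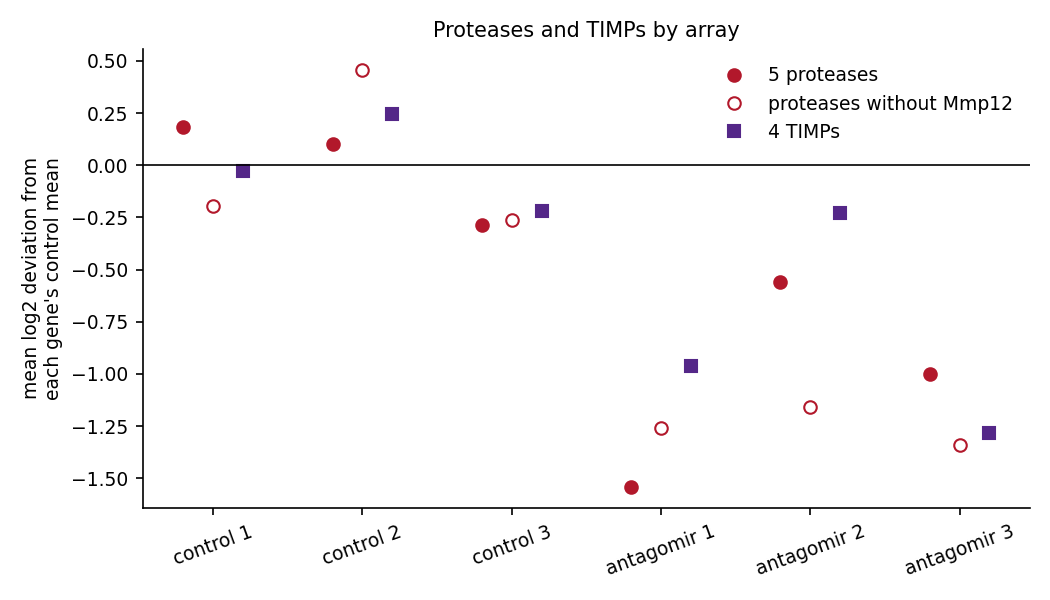
Mean log2 deviation from each gene's control mean on each array, for the 5 tested proteases (filled red circles), the same without Mmp12 (open circles) and the 4 TIMPs (purple squares). The proteases without Mmp12 lie between −1.34 and −1.16 on the antagomir arrays, whereas the TIMPs spread from −1.29 to −0.23 there.

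Single pairs showed the same dependence. Mmp2 minus Timp2, the inhibitor of its activation complex, was 0.09, 0.17 and −0.26 on the control arrays and −0.72, −1.16 and −0.66 on the antagomir arrays. Mmp14 minus Timp2 was 0.33, −0.32 and −0.0101 on the controls and −0.0452, −0.35 and 0.49 on the antagomir arrays, with overlap. Mmp2 minus Timp4 was −1.73 ± 0.11 on the antagomir arrays (control SD 0.68). Mmp2 minus Timp1 was 1.18, −1.69 and 1.98 on antagomir arrays 1 to 3, and thus ran in both directions.

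The 9 tested genes also differed in how they ran over the 6 arrays. Likeness was measured as the root mean square difference in log2 level over the 6 arrays after subtracting each gene's mean, which uses the same arrays as the comparison and was not tested. Among pairs of these genes, Mmp3 and Timp2 (0.259), Mmp14 and Timp3 (0.263) and Mmp2 and Mmp23 (0.264) were the closest, and Mmp2 and Mmp12 (1.88) the farthest. Over all named genes, the closest to Mmp2 were Col6a1, a chain of type VI collagen (0.0985), Bdh2 and Lhfpl2. Among the closest to Mmp3 were Bace2 and Gpr183, and the closest to Mmp14 were Grin3b, Prkcz and Emid1. Closest to Mmp23 were Srpx2 (0.0490), the non-coding RNA Meg3 (0.0509) and Sertad4. Timp2 ran most like Kirrel, Gpm6b and Itgb4, Timp3 like Rras, Synm and Id3, and Timp4 like Srpk3, Pkhd1 and 1190005I06Rik. Timp1 and Mmp12 had no neighbour so near. Those of Timp1 were Cx3cr1, a receptor of resident macrophages and monocytes (0.407), Aspm and Ccnb1, both of dividing cells, and those of Mmp12 were Icos (0.592), Spaca9 and Col6a5.

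Other members of the family did not show the same counts. Of 17 further metalloproteinase genes 8 were tested, 3 of them lower and 5 higher, with a median of 0.13, and 0 had an unadjusted limma p under 0.05. The shares over all genes were 37.4% with lower means, and 4.16% lower and 3.05% higher at that p. Beside these small shares, 0 of 8 does not set this list apart from all genes. This list and the metalloproteinases and TIMPs above were chosen with earlier results of these data known. The difference between them was not tested. Mmp11, stromelysin-3, had a fold change of −0.36 (SE 0.20) and Mmp19 of −0.62 (SE 0.35). Mmp13, the main interstitial collagenase of mice, had signals of 32.2, 22.7 and 20.7 on the control arrays and 16.7, 57.2 and 106 on the antagomir arrays (1.15, SE 0.64). Mmp8, the neutrophil collagenase, was well above background on control array 1 and antagomir arrays 2 and 3 alone, at 34.7, 36.2 and 69.8. Both collagenases were thus called well above background, at low signals, on arrays of both groups. Both were highest on antagomir array 3, which was brighter at its dim end, with a median probe signal of 74.8 against 23.4 to 31.0 on the other arrays. The part of that brightness in the higher means of dim genes was not tested.

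Genes that activate, bind or otherwise control these enzymes had 23 of 27 members tested, with 17 lower and 6 higher and a median of −0.48, and 0 passed the adjusted threshold by limma. At an unadjusted limma p under 0.05, 8 were lower and 0 higher. Of all genes tested, 37.4% had lower means, and 4.16% were lower and 3.05% higher at that p. Ctsk, the collagen-cutting cathepsin K, had signals of 4798, 6843 and 2305 on the control arrays and 576, 1070 and 655 on the antagomir arrays (−2.28, SE 0.44). Thbs2, thrombospondin-2, which helps to clear Mmp2 from the cell surface (−0.84, SE 0.23), Pcsk5, a proprotein convertase (−1.05, SE 0.29), and Lrp1, the endocytic receptor that takes up several metalloproteinases (−0.80, SE 0.25), did not overlap between groups either. Of 30 known inducers, 24 were tested, with 16 lower and 8 higher and a median of −0.15, 4 of them lower at an unadjusted p under 0.05. These 4 were Edn1, endothelin-1 (−0.91, SE 0.14), Tgfb3 (−1.58, SE 0.34), Tgfb2 (−1.45, SE 0.48) and Elk3, an Ets factor (−0.52, SE 0.18).

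Matrix proteins that these enzymes cut had a lower median than the enzymes and inhibitors. Of 21 substrates 20 were tested, and all 20 had lower means, with a median of −1.43, against 37.4% of all genes lower. Of these, 15 were without overlap and at an unadjusted limma p under 0.05, and 0 passed the adjusted threshold. Over all genes, 6.93% lay below the controls without overlap and 4.16% were lower at that p. Col3a1, type III collagen, had a fold change of −3.33 (SE 0.53), Col1a2, type I collagen, of −2.17 (SE 0.37) and Eln, elastin, of −1.79 (SE 0.29). Tnc, tenascin-C, was well above background on 3 of 3 control arrays (31.6, 25.7 and 16.5) but on 0 of 3 antagomir arrays, which makes it at least 1.23-fold lower when set against background. The list was chosen with earlier results on matrix genes in these hearts known, and the difference between the substrates and the enzymes was not tested.

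**Figure D4:**
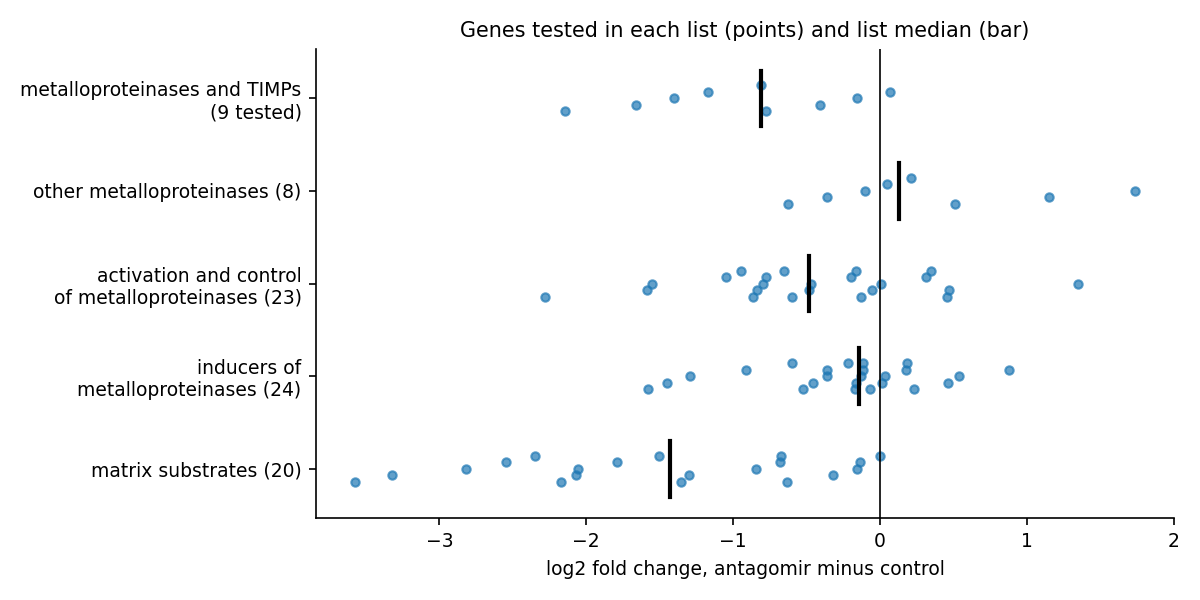
Log2 fold change, antagomir minus control, of each tested gene (points) in the group of metalloproteinases and TIMPs and in 4 related lists, with the list median as a bar. The medians are −0.81 for the metalloproteinases and TIMPs, 0.13 for other metalloproteinases, −0.48 for genes of activation and control, −0.15 for inducers and −1.43 for matrix substrates.

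Markers of several cell types differed between the groups or on single arrays. Fibroblasts are a main source of Mmp2, Mmp14 and Timp2 in the heart. Of 12 fibroblast markers tested 11 had lower means (median −0.83), 5 of them at an unadjusted limma p under 0.05, against 4.16% of all genes. The mean deviation of the list was −0.28, 0.58 and −0.30 on the controls and −1.43, −1.02 and −1.43 on the antagomir arrays. Postn, periostin (−3.71, SE 0.66), and Lum, lumican (−1.59, SE 0.31), were among them, and Cthrc1 was at least 17.7-fold lower, since no antagomir array showed it well above background. Control array 2, the highest of the controls for the fibroblast markers, was also the highest control for Mmp2, Mmp3, Mmp23, Timp1, Timp2 and Timp3, and the lowest for Timp4 and Mmp12. For Mmp14 control array 1 was the highest (0.12, against 0.053 on control array 2). The part of fibroblast content in the values of the proteases and TIMPs was not tested.

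Among the antagomir arrays, the mean of the macrophage markers was highest on array 2, as was Timp1. Of 14 tested 12 had lower means (median −0.23). Gpnmb, at −1.94 (SE 0.40), and Trem2, at −1.25 (SE 0.49), had the smallest p. Csf1r was at −0.11 (SE 0.36) and C1qa at −0.089 (SE 0.44). The 2 with higher means were Cd163 (0.82, SE 0.38) and Cd68 (1.16, SE 0.76). The list's mean was −0.52, 0.35 and −0.68 on antagomir arrays 1 to 3, against −0.093 to 0.13 on the controls. Several single markers were not highest on array 2. Signals on antagomir arrays 1 to 3 were 99.6, 111 and 132 for Gpnmb and 13.2, 34.2 and 105 for Cd68. They were 5906, 5174 and 7324 for Itgam and 1203, 1009 and 649 for Cd14. Neutrophil markers, 7 tested of 10, were highest on antagomir array 2 (3.01) and also high on antagomir array 3 (1.42) and control array 1 (0.72), and at −0.82 and 0.10 on the other controls and −0.83 on antagomir array 1. The arrays on which Mmp8 was well above background were these 3. Mmp9, however, was measurable on control array 1 alone. The part of these cells in the values was not tested.

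Cardiomyocyte markers all had slightly higher means (10 of 10, median 0.20), at 0.14 to 0.27 on the antagomir arrays and −0.21 to 0.12 on the controls. Atrial markers, 5 of 7 with higher means (median 1.26), did not run as one list, with Sln, sarcolipin, at 5.30 (SE 2.29) and Nr2f2 at −0.43 (SE 0.13). Their mean stood at −0.23, 2.53 and 3.54 on antagomir arrays 1 to 3 and at 1.11 on control array 3, against −0.70 and −0.41 on the other controls. Adipocyte markers, all 7 with higher means (median 2.85), stood between 1.32 and 3.54 on the antagomir arrays and between −1.99 and 2.14 on the controls. Smooth muscle and pericyte markers had a median of −0.56 (7 of 8 lower), endothelial markers of −0.12 (7 of 9 lower), mast cell markers of 0.52 (1 of 5 lower) and mesothelial markers of −0.013 (4 of 7 lower). On antagomir array 1 Mmp2, Mmp3, Mmp14 and Mmp23 were low. The atrial, neutrophil and fibroblast markers stood there at −0.23, −0.83 and −1.43. The part of tissue make-up in the values of the metalloproteinases and TIMPs was not tested.

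**Figure D5:**
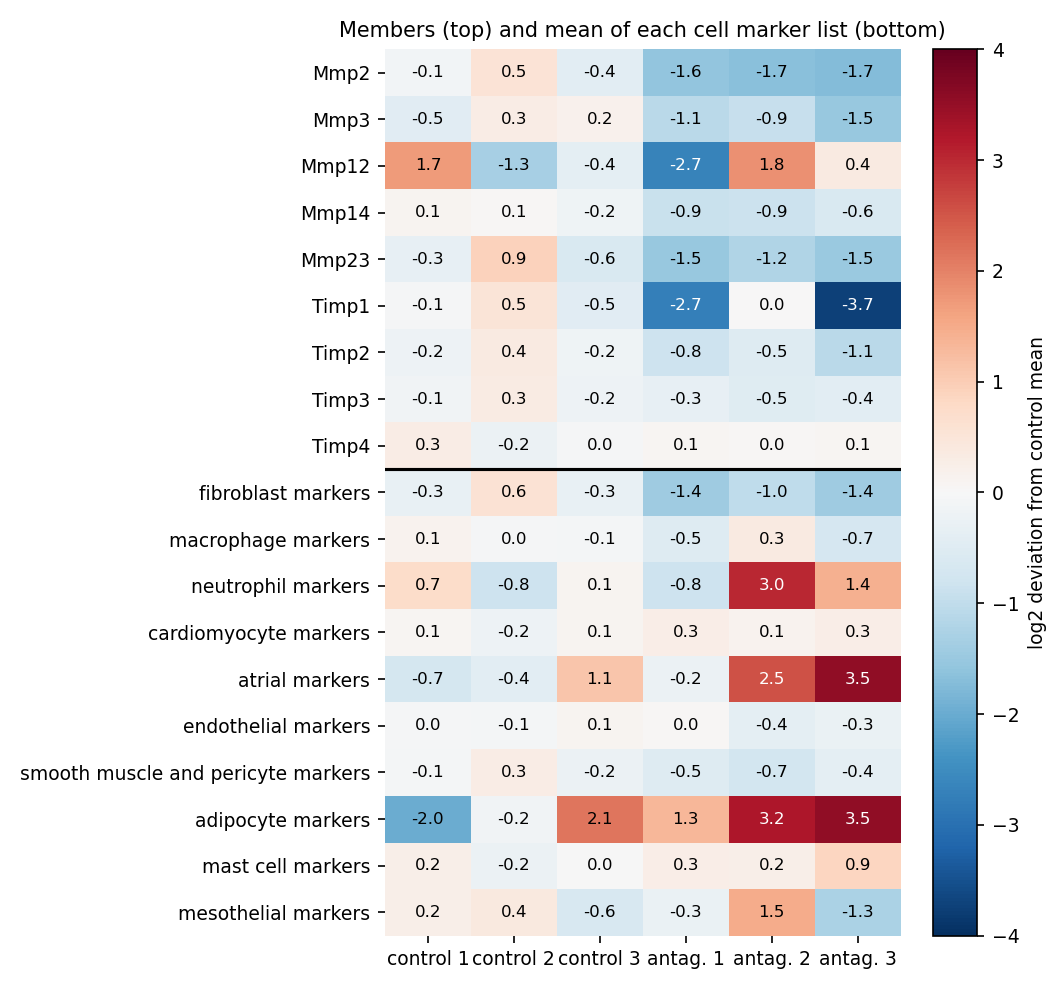
Log2 deviation from the control mean on each array, for the 9 tested metalloproteinases and TIMPs (top) and the mean of each cell marker list (bottom), from blue (lower) to red (higher). Fibroblast markers are at −1.43 to −1.02 on all antagomir arrays, while neutrophil, atrial and adipocyte markers reach 3.01, 3.54 and 3.54 on single antagomir arrays.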

How the data were processed

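The deposited files are scanner output of 1-colour Cy3 Agilent arrays, per the file headers from Agilent Feature Extraction 10.7.1.1, which gave each spot a background-corrected processed signal, an intensity not normalised between arrays. The deposited mean and background signals are intensities too, and the flags used are other values, 0 or 1 for each spot per the file headers. The authors' deposited table holds intensities equal to these processed signals within 1% and normalised log2 values whose sorted values match between arrays within 0.00143, with no method stated in the sources used here.

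Control and outlier spots were left out, spots of a probe were averaged as log2, each array's 75th percentile over probes was subtracted, a probe had to be well above background on 3 or more of the 6 arrays, and the probe with the highest mean stood for its gene. The comparison used limma 3.58.1 (R 4.3.3), two-sided, Benjamini-Hochberg over 22991 genes, on a script tested on simulated data. A fold with a whole group not well above background is a lower bound, taken against that array's lowest signal that was. Python 3.11.15 with numpy 2.4.6, pandas 2.3.3 and matplotlib 3.10.9 made the figures and tables. Symbols were updated through RefSeq (GRCm38.p6): 26576 probes matched by accession, 2607 by current symbol, 492 by synonym, and 26006 kept the file's name. Probe positions are the file's own (mm9).

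The genes and lists were chosen with earlier results of these data known. Named are all 10 genes, the 4 genes of smallest p per related list, up to 3 per cell marker list, and the 3 nearest patterns per gene, of which 1 is not reported here. Alternatives were other scalings, background corrections, filters, probe rules and variance models, the authors' table, the replicate number or slide row as a block, and each array left out. Protein sequences were not used here.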

Additional observations from a re-analysis of the deposited data

How the results depend on the processing

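With the other settings the number of all genes past the adjusted threshold, 3 as reported, was 1 with quantile scaling, 199 with scaling by the array median, 0 with normexp and quantile scaling, 1 with the authors' table, 1 without a filter, 0 with probes well above background on all 6 arrays, 6 probes with every probe tested by itself, 8 with array weights, 0 with the slide row as a block and 0 to 3 with an array left out. A 75th percentile over spots in place of averaged probes, added after the data were seen, gave 1. None of the metalloproteinases and TIMPs passed except with scaling by the array median, where 2 did (Mmp2 at −2.13, adjusted p = 0.0451, and Timp1 at −2.62, adjusted p = 0.00294), as did 23 of the other listed genes against 0. In that setting limma gave every gene the same variance, and the median of all genes moved from 0.09 to −0.38. Over the alternatives the limma adjusted p ran from 0.0451 to 1 for Mmp2 and from 0.00294 to 1 for Timp1. Signs turned for Timp4 with scaling by the array median (−0.40), array weights (−0.13) and without control replicate 2 (−0.054), and for Mmp12 with the slide row as a block (0.22), without control replicate 1 (0.69) and without antagomir replicate 1 (1.1), and the cause was not tested. With an array left out Timp4 ran from −0.054 to 0.21 and Mmp12 from −1.15 to 1.1, and Mmp12 was −2.53 with array weights and −1.19 with quantile scaling. The other 7 genes kept their sign in all 20 alternatives. For the 6 of them without overlap, the sign could not turn with an array left out or with the slide row as a block. Proteases minus TIMPs, −0.21 as reported, ran from −0.46 to −0.024 with an array left out and from −0.53 (array weights) to −0.079 (no filter) in the other settings. Leaving out an array left 6 or 7 genes without overlap, where 7.99% to 14.6% of all genes were. Since leaving out an array cannot make separate groups overlap, this count could not fall below 6, and it is no check of the result.

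The labels give both groups replicate numbers 1 to 3. Deviations of arrays with the same number correlated across genes at 0.22, 0.14 and −0.049, and antagomir array 3 did not correlate best with its own number, so that the numbers were not taken as pairs. With the replicate block 0 of all genes and 0 of the metalloproteinases and TIMPs passed, with 6 of them lower at an unadjusted p under 0.05, where 2272 of all genes had such a p in either direction against 1658 as reported, and proteases minus TIMPs remained at −0.21. Signal over background limits Mmp9 and Mmp12, and 3 arrays per group limit the rest.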
